A study of Mus musculus with 12 samples.

Results

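Liver RNA of male C57BL/6N mice fed a high-fat diet (HFD) was compared with liver RNA of mice fed a control diet (CD), gene by gene. The members are the named genes with at least 1 transcript of status OK in the authors' table of this comparison, each read through its most abundant OK transcript, and 11996 genes were found in this way. The whole series, with its second comparison, held 13811 genes. HFD mice were wild type and received 54 kJ% fat, 22 kJ% carbohydrate and 24 kJ% protein for 30 weeks from 6 weeks of age. CD mice were wild type and received 11 kJ% fat, 62 kJ% carbohydrate and 27 kJ% protein. Both groups were 36 weeks old and comprised 3 livers each, of 12 livers in the series. The other 6 livers came from LepRdb mice (db), which lack a working leptin receptor, and from lean misty mice that served as their controls. The study's methods place both on the BKS background, another strain than that of the HFD and CD mice, whereas the labels write C57BL/6 for every sample. All db and misty mice ate the diet with 11 kJ% fat. The labels give them an age of 36 weeks too, but the methods of the study describe them as younger. C57BL/6N is an inbred mouse strain, and a whole liver holds hepatocytes, endothelium, stellate cells, bile duct cells and several kinds of leukocyte, so in these bulk samples fewer cells of a type and less RNA per cell cannot be told apart.

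Expression is given in FPKM, a count of sequenced fragments scaled to transcript length and library size, as 1 pooled value per group that the authors' Cuffdiff run made from 3 livers. No value per liver was analysed here, so the difference between the groups has no replicate check, no test was made and no error can be given, and the sequencing depth of each liver is unknown. The ratio is log2 of HFD over CD after adding 0.5 FPKM to both, which understates the difference of low genes, and "2-fold" refers to a ratio of 1 or more in size on that scale. A gene listed at 0 may be a failed estimate, and no fold is given against 0. Absence from the genes described is not absence from the liver, since the albumin gene, the most familiar liver transcript, had no OK line. On the scale with 0.5 FPKM added, 21 of the genes counted as 2-fold higher were listed at 0 in CD and 5 of those counted as 2-fold lower at 0 in HFD.

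The liver makes, stores, burns and exports fat, and in the fed state insulin drives glucose into glycogen and fatty acids while restraining glucose output. Prolonged surplus of dietary fat is known to fill hepatocytes with lipid droplets, to blunt insulin and growth hormone action, and to draw leukocytes into the tissue. The male liver also runs a programme of secreted urinary proteins and steroid-metabolizing enzymes that is kept up by pulses of growth hormone. The genes are ordered by these roles, and each gene list is described by its counts and its median ratio.

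Most genes differed little between HFD and CD liver. Of 11996 genes, 331 were 2-fold or more higher in HFD (2.76%), 142 were 2-fold or more lower (1.18%), and 11523 lay within 2-fold (96.1%). Ratios of 2 or more in size, a 4-fold difference, were found for 60 genes on the higher side and 31 on the lower side. The median ratio was -0.01, and the 5th and 95th percentiles were -0.53 and 0.77, so the higher side of the distribution was the longer one. At the threshold itself, the nearest ratios were 1.0015 inside and 0.9997 outside on the higher side.

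The side that prevailed depended on abundance. Of 5140 genes with a mean of 1 to 10 FPKM, 3.66% were 2-fold higher and 1.36% 2-fold lower. Of 169 genes with a mean of 100 to 10000 FPKM, 4.73% were 2-fold higher and 7.10% 2-fold lower, and the median ratio of these abundant genes was -0.17. At 100 to 10000 FPKM the lower side thus held more genes, and below that level the higher side did. At low values the added 0.5 FPKM keeps ratios small, so these shares are not comparable between levels in size.

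**Figure D1:**
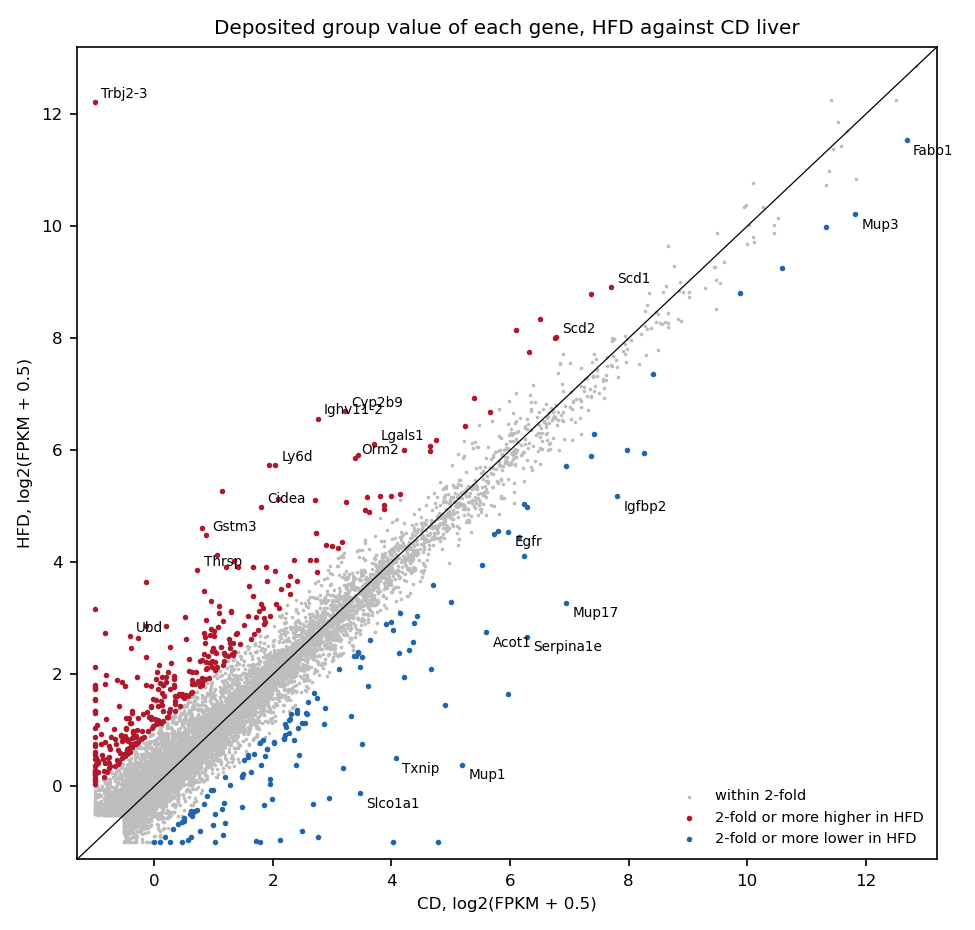
Deposited group value of each gene in CD (horizontal) and HFD (vertical) as log2(FPKM + 0.5), with genes above 10000 FPKM left out. Each point is 1 gene and the line marks equal values; 331 genes 2-fold or more higher and 142 genes 2-fold or more lower in HFD, less those above 10000 FPKM, are coloured, and Mup1, Txnip and Serpina1e lie far below the line.

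By gene class, protein-coding genes held 231 of the higher and 98 of the lower genes, out of 9486. Long noncoding RNAs (lncRNAs) held 22 higher and 16 lower of 930, or 2.37% and 1.72%, with a median ratio of -0.04. Antigen receptor gene segments had 55 of 80 higher (68.8%) and 3 lower. Only segments with an OK transcript are counted, and some of them were listed at 0 in CD. Such a segment could enter through its HFD value, so the share partly follows from which segments passed. The other classes, pseudogenes and small RNAs among them, had between 0.625% and 2.18% of genes on the higher side.

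**Figure D2:**
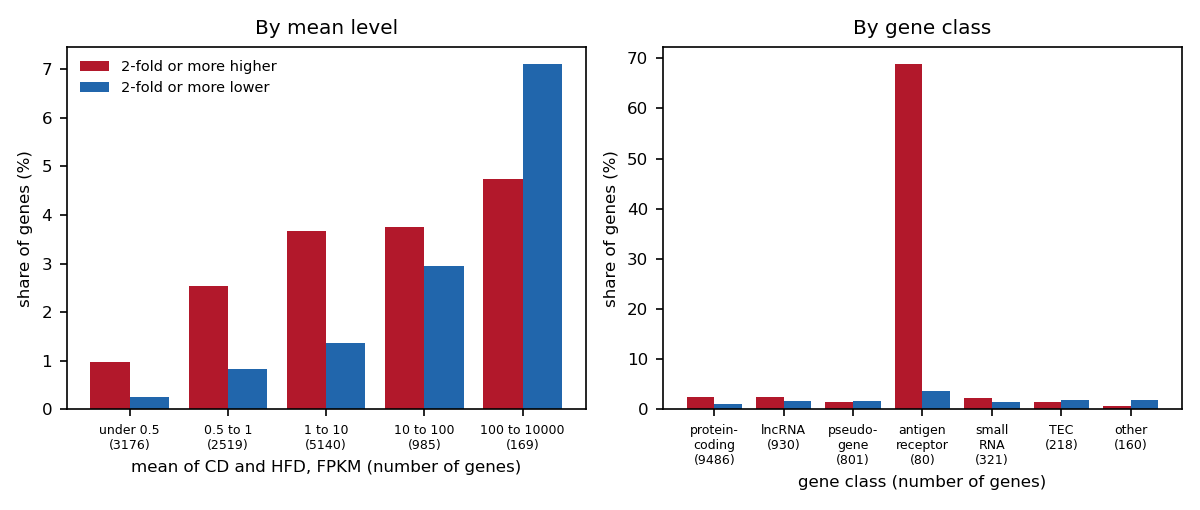
Share of genes (%) that were 2-fold or more higher (red) or lower (blue) in HFD, by the mean of the CD and HFD values in FPKM (left) and by gene class (right), with the number of genes in brackets; TEC is the annotation's class of genes that still await experimental evidence. The lower share overtakes the higher one at 100 to 10000 FPKM, and 68.8% of antigen receptor segments with an OK transcript were on the higher side.

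Among protein-coding genes, the largest ratios on the higher side belonged to a small set of secreted, membrane and metabolic proteins. Ly6d, a membrane protein of the Ly6 family, was at 3.61 FPKM in CD against 52.9 FPKM in HFD (ratio 3.70); in what follows a pair of values is always CD first and HFD second, and the number in brackets is the ratio. Gstm3, a glutathione transferase, was at 1.32 and 21.9 FPKM (3.62). Cyp2b9 and Cyp2b13, P450 enzymes that predominate in the female mouse liver, had ratios of 3.47 and 3.57. Cidea, which fuses and enlarges lipid droplets, was at 2.99 and 31.1 FPKM (3.18), and Ubd, a ubiquitin-like protein induced by inflammatory cytokines, at 0.252 and 5.90 FPKM (3.09). Thrsp, a regulator of lipogenesis read here through a transcript with a retained intron, was at 1.15 and 14.0 FPKM (3.13).

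On the lower side, genes of the male liver were frequent among the largest ratios. Mup1, a major urinary protein that carries pheromones, stood at 36.0 and 0.808 FPKM (-4.80). Serpina1e, a copy of the antitrypsin gene, was at 77.6 and 5.87 FPKM (-3.62). Slco1a1, an organic anion carrier of the sinusoidal membrane, was at 10.5 and 0.417 FPKM (-3.59). Txnip, which binds thioredoxin and restrains glucose uptake, was at 16.3 and 0.912 FPKM (-3.57). Hsd3b5, a steroid dehydrogenase of the male liver, was at 3.86 and 0.0167 FPKM (-3.08). Among the 15 lowest ratios were 5 Mup genes and the pseudogene Mup-ps17, which was at 27.0 FPKM in CD and listed at 0 in HFD. These families of near-identical copies (Mup, Serpina1, Cyp2b, Cyp4a, Orm, Saa, Gst and immunoglobulin segments) share reads, so the split between their members is uncertain.

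In absolute terms the abundant liver genes differed most on the lower side. Leaving aside 8 genes with values above 10000 FPKM, among them the olfactory receptor Olfr722 at 1.57e+08 FPKM in CD, which are not readable as abundance, the greatest loss was that of Fabp1, the fatty acid binding protein of the hepatocyte cytosol. Its level was 6606 FPKM in CD against 2959 FPKM in HFD, 3647 FPKM lower (-1.16). Mup3 was 2435 FPKM lower, Apoa1, the main protein of high-density lipoprotein, 1812 FPKM lower, and Serpina3k, a secreted protease inhibitor, 1556 FPKM lower. Gstp1, a glutathione transferase more abundant in male liver, was at 1532 and 610 FPKM (-1.33). Ephx2, the soluble epoxide hydrolase that inactivates epoxides of fatty acids, was at 942 and 446 FPKM (-1.08). The ratio of Apoa1, -0.99, lay just within 2-fold.

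The gains of well-characterized liver genes were smaller. Scd1, the stearoyl-CoA desaturase, was at 207 and 482 FPKM, 275 FPKM higher (1.22). Fth1, the heavy chain of ferritin, was 308 FPKM higher, at 983 and 1291 FPKM (0.39). Acyp2, an acylphosphatase, was at 165 and 442 FPKM (1.42). Short features also stood among the largest gains. The T cell receptor segment Trbj2-3, 49 bases long, was listed at 0 in CD and at 4771 FPKM in HFD, and division by so short a length makes its FPKM large.

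In lipid storage, proteins that enlarge droplets were higher while coat proteins were not. Of 15 genes of lipid droplets and lipolysis, Cidea and Cidec were 2-fold or more higher and none lower, and the median was -0.01, close to that of all genes. Cidec, the sister protein of Cidea, was at 4.40 and 13.1 FPKM (1.47). The droplet coats Plin2 (11.98 and 8.37 FPKM) and Plin5 (13.9 and 9.99 FPKM) had ratios of -0.49 and -0.46. G0s2, an inhibitor of the lipase ATGL, was at 66.2 and 32.8 FPKM (-0.9993, just within the threshold).

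Fatty acid uptake was split. Of 16 genes, Lpl, the lipase that frees fatty acids from lipoproteins, was at 0.772 and 2.55 FPKM (1.26), and Vldlr, a receptor for lipoproteins, at 0.974 and 2.57 FPKM (1.06). Cd36, a fatty acid transporter, was at 3.14 and 5.85 FPKM (0.80). Fabp1 was the single member 2-fold lower, and Acsl5, which activates fatty acids, was at 160 and 104 FPKM (-0.61).

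In lipogenesis, the desaturases of saturated fatty acids and Fads2, a desaturase of polyunsaturated fatty acids, lay on opposite sides. Of 17 genes, 5 were 2-fold or more higher (Thrsp, Fasn, Scd2, Scd1 and Elovl7) and 2 lower (Elovl2 and Fads2), with a median of 0.28. Fasn, the fatty acid synthase, was at 1.41 and 4.10 FPKM (1.26), and Scd2 at 109 and 260 FPKM (1.25). Fads2, the desaturase that opens polyunsaturated fatty acid synthesis, was at 339 and 163 FPKM (-1.05), and Elovl2, an elongase of the same pathway, at 31.6 and 9.34 FPKM (-1.71). Fads1, another desaturase of that pathway, differed little, at 32.8 and 28.8 FPKM (-0.18). Lpin1, a phosphatidate phosphatase of triglyceride synthesis, was the single one of 10 glycerolipid genes past 2-fold, at 4.59 and 15.98 FPKM (1.69). None of 19 phospholipid genes and none of 22 sphingolipid genes passed 2-fold, with medians of 0.18 and 0.15. Because 96.1% of all genes lay within 2-fold, these counts are not read as a trait of the 2 lists.

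Cholesterol synthesis leaned to the higher side. Of 16 genes, 13 had a ratio above 0, and 2 passed 2-fold on the higher side. Sqle, the squalene epoxidase, was at 0.551 and 3.99 FPKM (2.09, a transcript with a retained intron). Hmgcs1, the first committed enzyme of the pathway, was at 8.51 and 16.9 FPKM (0.95). The median was 0.33, and the summed level of the list was 41.9 FPKM in CD and 59.4 FPKM in HFD.

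Lipoprotein and lipid export genes leaned the other way, with 19 of 26 ratios below 0, a median of -0.34 and none past 2-fold. Apom, an apolipoprotein of high-density particles, was at 113 and 63.6 FPKM (-0.83), and Apoa5, which promotes triglyceride clearance, at 57.7 and 35.1 FPKM (-0.71). Apoa4, made when lipid is exported, was at 63.0 and 118 FPKM (0.90), and Apoc2, the cofactor of lipoprotein lipase, at 433 and 623 FPKM (0.53). The list summed to 11159 FPKM in CD and 8409 FPKM in HFD.

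Fatty acid oxidation leaned lower at a modest size. Of 23 genes of mitochondrial oxidation and ketogenesis, 20 had a ratio below 0, the median was -0.40, and Eci1, an isomerase for unsaturated fatty acids, was the single gene past 2-fold, at 10.5 and 3.89 FPKM (-1.33). Acaa2, the thiolase that ends each cycle and the most abundant member, was at 624 and 473 FPKM (-0.40), and Cpt2, of the carnitine shuttle, at 8.98 and 6.00 FPKM (-0.54). Ppargc1a, a coactivator of oxidative genes, was at 1.08 and 1.17 FPKM (0.08).

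Peroxisomal genes and acyl-CoA thioesterases had larger differences. Of 23 genes, 4 were 2-fold or more lower (Acot1, Ehhadh, Acot3 and Acaa1b) and none higher, with a median of -0.33. Acot1, a thioesterase of the cytosol, was at 48.0 and 6.22 FPKM (-2.85), and Ehhadh, the bifunctional enzyme of peroxisomal oxidation, at 17.97 and 3.36 FPKM (-2.26). Cyp4a14, which hydroxylates fatty acids at their far end, was at 252 and 63.9 FPKM (-1.97). Phyh, which starts the oxidation of branched fatty acids, was the most abundant member, at 1397 and 944 FPKM (-0.57). These genes are textbook targets of the fatty acid receptor PPARα.

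**Figure D3:**
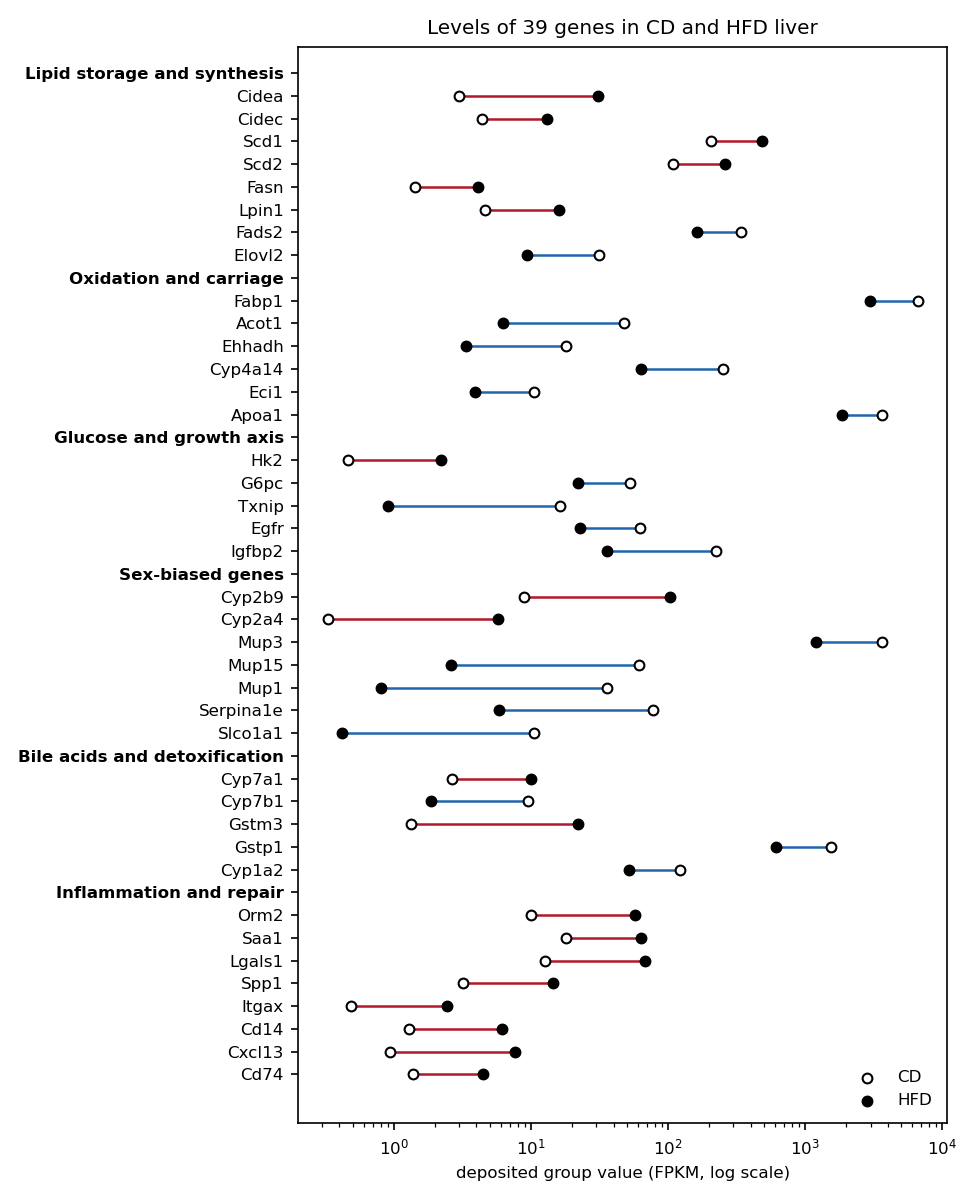
Deposited group values in FPKM (log scale) of 39 genes named in the text, with open circles for CD and filled circles for HFD, joined in red where HFD was higher and in blue where it was lower. Droplet, female-biased and inflammatory genes and Fasn, Scd1, Scd2 and Lpin1 shift to the right, while Fads2, Elovl2, peroxisomal, male-biased and growth axis genes shift to the left.

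In glucose metabolism, a few genes of glucose use were higher, and the phosphatase that releases glucose was lower. Of 20 genes of glycolysis and glucose uptake, 3 were 2-fold or more higher and none lower, among them Hk2 (0.461 and 2.198 FPKM) and Pkm (1.25 and 3.09 FPKM), with ratios of 1.49 and 1.03. Hk2 phosphorylates glucose, and Pkm is the pyruvate kinase of cells other than hepatocytes. Of 20 genes of gluconeogenesis and glycogen, Txnip and G6pc were 2-fold or more lower. G6pc, the catalytic unit of glucose 6-phosphatase, was at 52.3 and 22.1 FPKM (-1.23). Pygl, the liver glycogen phosphorylase, was at 83.4 and 144 FPKM (0.78), and Gys2, the liver glycogen synthase, at 22.7 and 15.3 FPKM (-0.55). The medians of the 2 lists were 0.23 and -0.01.

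Of 31 genes of insulin and nutrient signalling, 19 had a ratio below 0, and the median was -0.06. Only Ddit4, an inhibitor of mTORC1, passed 2-fold, at 0.463 and 1.79 FPKM (1.25). Within 2-fold lay 96.1% of all genes, so this count is not read as a trait of the list. The insulin receptor substrates Irs1 (0.357 and 0.149 FPKM) and Irs2 (0.421 and 0.106 FPKM) had ratios of -0.40 and -0.60. At such low values the added 0.5 FPKM keeps ratios small. Pik3r1, the regulatory subunit of PI3 kinase, was at 9.11 and 12.8 FPKM (0.47). Grb14, an inhibitor of the insulin receptor, was at 1.67 and 1.02 FPKM (-0.52).

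The growth hormone and IGF axis held 2 large differences, both on the lower side, of 18 genes. Igfbp2, a carrier of insulin-like growth factors, stood at 223 and 35.8 FPKM (-2.62). Egfr, the receptor of epidermal growth factor and a gene with higher expression in male liver, was at 61.9 and 22.8 FPKM (-1.42). Igfals, which stabilizes circulating IGF1, was at 3.13 and 1.33 FPKM (-0.99), and Cish, a feedback inhibitor induced by growth hormone, at 1.10 and 0.368 FPKM (-0.89). The median of the axis, -0.06, was near that of all genes.

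The male-biased programme had the lowest median of the 70 gene lists. Of 36 genes, 22 were 2-fold or more lower and none higher, 34 had a ratio below 0, and the median was -1.38. The list summed to 12336 FPKM in CD and 6175 FPKM in HFD. Mup15 was at 61.8 and 2.62 FPKM (-4.32), Mup17 at 123 and 9.21 FPKM (-3.67) and Mup7 at 6.27 and 0.0364 FPKM (-3.66). Mup3 was at 3626 and 1190 FPKM (-1.61), but Mup20, the urinary pheromone known as darcin, was at 2805 and 2664 FPKM (-0.07). Mup genes thus ranged from -4.80 for Mup1 to ratios near 0. Cyp4a12b, a fatty acid hydroxylase of male liver, was at 29.6 and 2.24 FPKM (-3.46), and Serpina3k at 2567 and 1010 FPKM (-1.34).

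Female-biased genes leaned the other way. Of 24 genes, 10 were 2-fold or more higher, and Acot3 was the single one lower, with a median of 0.89 and sums of 171 FPKM in CD and 374 FPKM in HFD. Cyp2b9 was at 8.85 and 103 FPKM (3.47). Cyp2a4, a steroid hydroxylase, was at 0.329 and 5.74 FPKM (2.91), and Cyp2b10, a P450 enzyme induced through the receptor CAR, at 0.00971 and 1.64 FPKM (2.07). Cyp2a5, the most abundant member, was at 114 and 186 FPKM (0.71).

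In bile acid metabolism, an enzyme of the classical and one of the alternative pathway lay on opposite sides. Cyp7a1, the rate-limiting enzyme of the classical pathway, was at 2.66 and 10.0005 FPKM (1.73), and Cyp7b1, an oxysterol hydroxylase of the alternative pathway, at 9.43 and 1.88 FPKM (-2.06). Cyp7b1 is also in the male-biased list, and of the other enzymes, Cyp8b1 was at 0.264 and 0.188 FPKM and Cyp27a1 at 66.7 and 60.04 FPKM (-0.15 each). Slco1a1 was the other of 24 genes past 2-fold. Slc10a1, which takes bile acids up from blood, was at 227 and 157 FPKM (-0.53). The receptor gene Nr1h4 was at 28.1 and 28.0 FPKM, and the list median was -0.15.

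Enzymes of detoxification had a mixed pattern. Of 37 P450 genes of drug metabolism, 4 were 2-fold or more higher (Cyp2b10, Cyp2c39, Cyp2c38 and Cyp26a1) and 4 lower (Cyp4a14, Cyp2c54, Cyp2c44 and Cyp1a2), with 24 ratios below 0 and a median of -0.36. Cyp2c38 was at 13.5 and 35.7 FPKM (1.37), and its neighbour in the family Cyp2c54 at 70.2 and 21.5 FPKM (-1.69). Cyp1a2, which oxidizes caffeine and aromatic amines, was at 122 and 52.2 FPKM (-1.22). Of 31 conjugation enzymes, 3 were 2-fold or more lower, Ugt3a1 and Ugt2b1 among them, and none higher.

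Target enzymes of NRF2, the factor that answers oxidative and electrophilic stress, leaned higher. Of 25 genes, 5 were 2-fold or more higher (Gstm3, Cbr3, Ugdh, Gsta2 and Ces1g) and Gstp1 lower, with a median of 0.48. Ugdh was at 0.00800 and 0.899 FPKM (1.46), and its CD value near 0 may be a failed estimate. Cbr3, a carbonyl reductase, was at 0.404 and 3.02 FPKM (1.96), and Nqo1, a quinone reductase, at 1.499 and 3.42 FPKM (0.97). Nfe2l2, which encodes NRF2 itself, was at 8.75 and 12.5 FPKM (0.49). The list summed to 2673 FPKM in CD against 2204 FPKM in HFD with 19 of its genes above 0, and Gstp1 alone was 922 FPKM lower.

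Amino acid catabolism was modestly lower. Of 34 genes, 24 had a ratio below 0, the median was -0.26, and Agxt, the peroxisomal aminotransferase that clears glyoxylate, was the single gene past 2-fold, at 165 and 59.3 FPKM (-1.47). Gpt2, an alanine aminotransferase, was at 11.2 and 20.6 FPKM (0.86), and Gls2, the liver glutaminase, at 82.3 and 49.6 FPKM (-0.72). Psat1, of serine synthesis, was at 0.214 and 1.56 FPKM (1.53) and alone passed 2-fold among 14 genes of serine, one-carbon and methionine metabolism. Cbs, which diverts homocysteine to cysteine, was at 4.50 and 2.13 FPKM (-0.93).

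Among iron, heme and metal genes, few passed 2-fold and they did so on both sides. Hamp2, a copy of the iron hormone hepcidin, was at 5.67 and 15.9 FPKM (1.41), and Steap4, a metalloreductase, at 11.2 and 30.1 FPKM (1.38). The far more abundant hepcidin gene Hamp was at 464 and 456 FPKM (-0.02). Fech, the last enzyme of heme synthesis, was at 4.07 and 1.32 FPKM (-1.33), and the copper carrier Cp at 10.1 and 4.54 FPKM (-1.07). Slc39a4, a zinc importer, was at 1.96 and 8.09 FPKM (1.81), and the metal-binding protein Mt1 at 0.992 and 3.64 FPKM (1.47). Mt2, of the same family, was at 1.26 and 0.965 FPKM (-0.26). Retinoid genes had a median of -0.05, with 2 genes 2-fold higher, Cyp26a1 among them, and Adh4 2-fold lower, and the abundant retinol carrier Rbp4 was at 2586 and 1695 FPKM (-0.61).

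Of the hepatokines, signals that the liver secretes, 2 of 32 genes were 2-fold or more higher and 2 lower. Tsku, a secreted protein linked to lipid metabolism in mice, was at 6.09 and 22.4 FPKM (1.80), and Gdf15, a stress hormone that curbs appetite, at 2.01 and 4.60 FPKM (1.02). Inhbc, a subunit of activin C, was at 10.3 and 4.77 FPKM (-1.03), and Igfbp2 was the other lower gene. Ahsg, the abundant plasma protein fetuin-A, was at 2668 and 2017 FPKM (-0.40).

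Acute phase proteins, which hepatocytes secrete in inflammation, were split. Of 30 genes, 6 were 2-fold or more higher and Cp lower, with a median of 0.28. Orm2, an orosomucoid, was at 9.97 and 57.5 FPKM (2.47), and Saa1, serum amyloid A, at 17.9 and 63.9 FPKM (1.80). Lcn2, which withholds iron from bacteria, was at 0.158 and 2.19 FPKM (2.03, a transcript without a reading frame). The fibrinogen chains Fgb and Fgg had ratios of -0.44 and -0.39. Of 33 coagulation genes, the plasminogen activator Plat (0.216 and 1.52 FPKM) and the urokinase receptor Plaur (0.309 and 1.34 FPKM) were 2-fold higher and Serpine2 lower (2.59 and 0.692 FPKM).

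Chemokines leaned higher. Of 26 genes of chemokines and their receptors, 7 were 2-fold or more higher and none lower, 22 had a ratio above 0, and the median was 0.71. Cxcl13, which attracts B cells, was at 0.932 and 7.61 FPKM (2.50), and Ccl5, which attracts T cells, at 1.30 and 5.82 FPKM (1.81). Ccl8 was listed at 0 in CD and was at 2.03 FPKM in HFD. Cxcl9, an interferon-induced chemokine, was at 1.45 and 4.86 FPKM (1.46). Cxcl12, the most abundant member, was at 19.99 and 13.8 FPKM (-0.52). Of 38 genes of cytokine signalling, 34 had a ratio above 0, and Cd14, the coreceptor of lipopolysaccharide, was at 1.29 and 6.16 FPKM (1.90).

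Genes of antigen presentation by MHC class II were higher, and those of class I lay on both sides of 0. Of 21 genes, 5 were 2-fold or more higher (Ubd, H2-Ab1, Cd74, Ctss and H2-DMb1), with a median of 0.57. H2-Ab1, a class II chain, was at 6.96 and 19.4 FPKM (1.42), and Cd74, the invariant chain, at 1.38 and 4.48 FPKM (1.41). B2m, the light chain of class I, was at 723 and 946 FPKM (0.39), and the class I transcript of H2-K1, which retains an intron, at 8.22 and 7.72 FPKM (-0.09). The class I genes H2-Q4 and H2-D1 had ratios of 0.61 and 0.43, and H2-Q7 and H2-Q10 had ratios of -0.30 and -0.06. Interferon-induced genes had a median of 0.12, with Ifi27l2b (2.03 and 15.8 FPKM) and Tgtp1 (0.538 and 2.19 FPKM) the 2 of 26 past 2-fold.

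The described markers of recruited and lipid-associated macrophages were all higher. Of 35 listed genes 27 had an OK transcript, while Cd9, Mmp12, Cd63, Cx3cr1, Clec4n, Clec4e, Lyz1 and Chil3 had none. All 27 genes had a ratio above 0, 17 were 2-fold or more higher, the median was 1.11, and the list summed to 150 FPKM in CD and 417 FPKM in HFD. Lgals1, a galectin also made by other cells, was at 12.6 and 68.4 FPKM (2.40), and Spp1, osteopontin, at 3.18 and 14.5 FPKM (2.03). Itgax, the integrin CD11c, was at 0.485 and 2.43 FPKM (1.57), and Mmp13, a collagenase, at 0.219 and 1.82 FPKM (1.69). Resident Kupffer cell markers had a median of 0.39, with 14 of 19 ratios above 0, 2 past 2-fold on the higher side and sums of 135 and 138 FPKM. C6, a complement protein that is also in the male-biased list, held the largest part of the CD sum, at 55.5 and 28.7 FPKM (-0.94). Clec4f, which is particular to Kupffer cells, was at 5.53 and 4.99 FPKM (-0.14), and Cd5l, a protein they secrete, at 3.09 and 6.92 FPKM (1.05). The largest ratio of the resident list, 1.21, was that of Csf1r, at 0.00222 and 0.660 FPKM. Its CD value lies near 0 and may be a failed estimate. The summed level of the recruited macrophage markers was higher in HFD, as was that of the chemokine and antigen presentation lists, and their part in those ratios was not tested. Of 35 lysosomal genes, 3 were 2-fold or more higher and none lower, with a median of 0.07, among them the macrophage cathepsin Ctss at 2.02 and 5.40 FPKM (1.23).

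Other leukocytes were seen at low levels. Of 8 neutrophil markers, S100a8 (1.72 and 7.23 FPKM), S100a9 (1.67 and 5.09 FPKM) and Retnlg (0.505 and 1.79 FPKM) were 2-fold higher, and the list summed to 4.55 and 16.05 FPKM. Ly6g and Mpo, defining genes of neutrophils, had no OK transcript. The 22 markers of T, B and NK cells had a median of 0.49 and summed to 7.63 and 19.1 FPKM. Jchain, which joins secreted antibodies, was at 1.10 and 3.05 FPKM (1.15), while the constant region genes Ighm, Igkc and Igha had no OK transcript. Of other constant region genes, 2 of the heavy chain summed to 0.508 and 0.827 FPKM and 2 of the lambda chain to 1.07 and 2.17 FPKM. Their medians were 0.33 and 0.64, and none passed 2-fold. At such low values the added 0.5 FPKM keeps ratios small.

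Variable segments of immunoglobulins were mostly higher. Of 32 heavy chain V segments, 22 were 2-fold or more higher and 2 lower, with a median of 1.51 and sums of 59.8 and 370 FPKM. Of 33 kappa V segments, 24 were higher and 1 lower, with a median of 1.66 and sums of 97.6 and 257 FPKM. Listed at 0 in CD were 3 heavy chain and 4 kappa V segments, and 1 of each was at 0 in HFD. A segment could thus enter through the value of 1 group, and these counts partly follow from that filter. Ighv11-2 (chr12:114048241-114048812, GRCm38) was at 6.26 and 94.2 FPKM (3.81), and Ighv6-3 at 3.33 and 52.7 FPKM (3.80). The kappa V segment at chr6:68930269-68930734 went against the rest, at 15.8 FPKM in CD and listed at 0 in HFD. Whether the pooled values come from 1 liver or from all 3 was not tested.

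Markers of the matrix and of stellate cells were higher at a modest size. Of 36 matrix genes, 31 had a ratio above 0, 3 were 2-fold or more higher (Mmp13, Timp1 and Nid1), and the median was 0.35. Of 23 stellate cell and fibroblast markers, Postn, a matrix protein of activated fibroblasts, was at 2.98 and 9.10 FPKM (1.46), and Ctgf, a growth factor of fibrosis, at 1.55 and 4.69 FPKM (1.34). Dcn, a proteoglycan and the most abundant member, was at 55.8 and 75.7 FPKM (0.44). The collagens Col1a1, Col1a2 and Col3a1 had no OK transcript.

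Markers of the remaining cell types varied. None of 17 endothelial markers passed 2-fold, with a median of 0.10 and sums of 46.1 and 53.3 FPKM, and none of 9 blood cell markers did, with a median of 0.16. Within 2-fold lay 96.1% of all genes, so these counts are not read as a trait of these cells. Cholangiocyte and progenitor markers had a median of 0.46, with H19, Spp1 and Cd24a 2-fold higher and Krt23 lower, while Sox9, which defines bile duct cells, was at 2.62 and 2.50 FPKM (-0.06). Of 15 pancreas markers only Cela1 had an OK transcript. Of 7 adipocyte markers, Cidea, Cfd and Aqp7 were 2-fold higher, while the defining genes Adipoq, Lep and Plin1 had no OK transcript. Hepatocyte identity genes had 23 of 25 ratios below 0 with a median of -0.30, and their factor Hnf4a was at 30.9 and 23.9 FPKM (-0.36). Their sums, 10807 FPKM in CD and 7846 FPKM in HFD, are those of liver tissue in both groups.

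**Figure D4:**
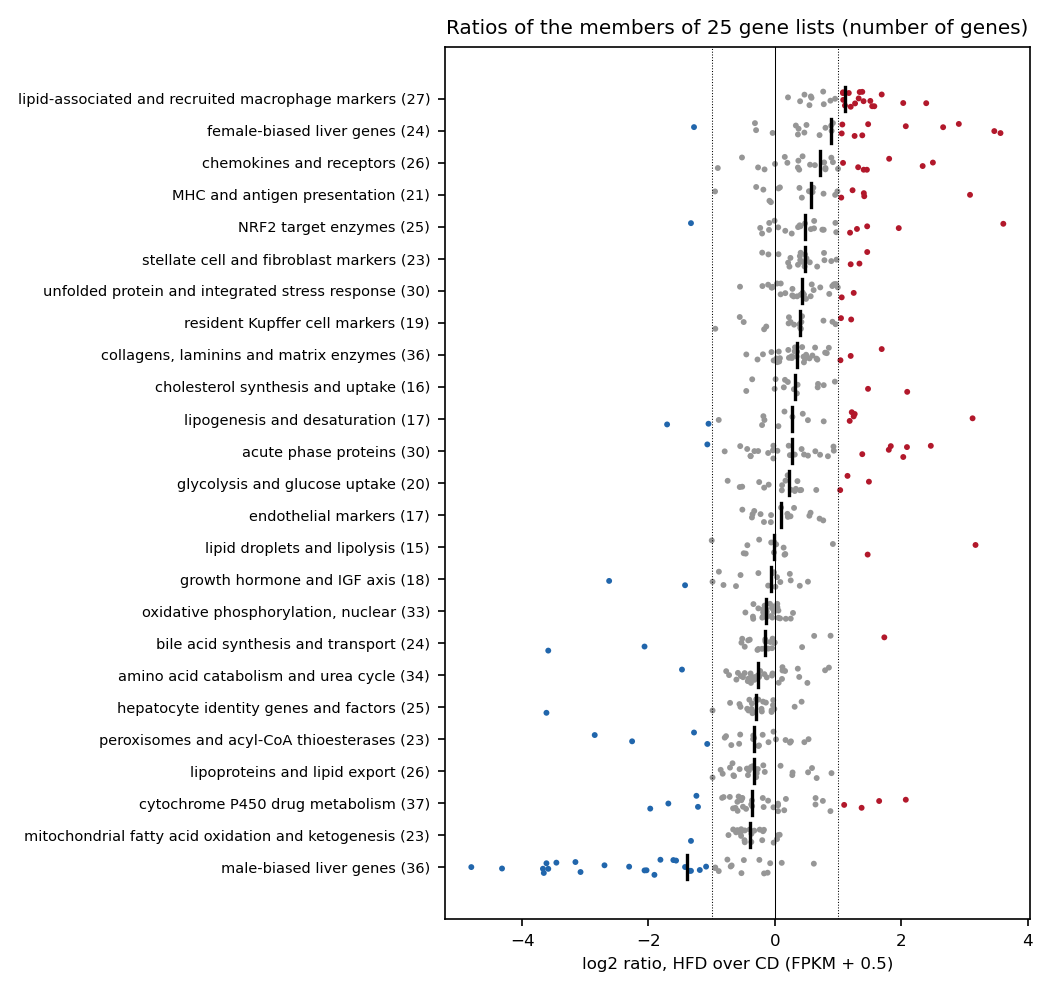
Log2 ratio of HFD over CD (horizontal) of each member of 25 gene lists, 1 point per gene, with the number of genes in brackets and a black bar at the median; red and blue points are 2-fold or more higher and lower. Male-biased genes (median -1.38) are at one end and recruited macrophage markers (median 1.11) at the other.

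Some cytoskeletal and membrane-binding proteins were higher. Of 28 actin and tubulin genes, 24 had a ratio above 0, 4 were 2-fold or more higher (Pls1, Tmsb4x, Capg and Myo1f) and none lower, with a median of 0.32. Of 17 annexins and S100 proteins, 16 had a ratio above 0, 5 were 2-fold or more higher and none lower, with a median of 0.43. Tmsb4x, which binds free actin, was at 79.8 and 214 FPKM (1.42), S100a11, a calcium-binding protein, at 10.3 and 60.2 FPKM (2.49), and Anxa5, a phospholipid-binding protein, at 41.5 and 122 FPKM (1.54). Pls1, an actin bundler of epithelial cells, was at 0.187 and 3.14 FPKM (2.41). Capg and Anxa5 also stand in the macrophage list.

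Several smaller systems held a few large differences. Of 26 complement genes, Cfd, the complement factor also made by fat cells, was at 0.0696 and 1.79 FPKM (2.01), and C8b, a part of the pore that lyses bacteria, at 2.34 and 0.661 FPKM (-1.29). Of 13 carbonic anhydrases and aquaporins, 3 were 2-fold or more higher, among them the water channel Aqp8 (1.51 and 6.33 FPKM) and the carbonic anhydrase Car2 (1.49 and 5.01 FPKM), with ratios of 1.76 and 1.47. Of 27 immediate early and AP-1 factors, 20 had a ratio above 0 with a median of 0.36, and Klf6 (1.93 and 5.05 FPKM) and the growth inhibitor Btg2 (1.77 and 4.71 FPKM) passed 2-fold. Serpina7, which carries thyroid hormone in plasma, was at 2.67 and 14.6 FPKM (2.26).

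Genes of the liver's zones had medians near that of all genes or slightly lower. Of 18 pericentral genes, Cyp7a1 was 2-fold higher and Cyp1a2 lower, with a median of -0.11. Of 21 periportal genes, Aldh1b1, a mitochondrial aldehyde dehydrogenase, was at 6.14 and 15.97 FPKM (1.31), G6pc was lower, and the median was -0.25. Each zone thus held 1 gene past 2-fold in each direction.

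Stress responses differed by kind. Of 30 genes of the unfolded protein and integrated stress response, 24 had a ratio above 0, the median was 0.43, and Ddit4 and Vldlr passed 2-fold. Herpud1, of the degradation machinery of the endoplasmic reticulum, was at 114 and 189 FPKM (0.72), and Manf, a secreted factor of the same compartment, at 44.3 and 87.2 FPKM (0.97). Heat shock genes leaned lower, with 17 of 21 ratios below 0 and a median of -0.19. Hspa8, the constitutive chaperone, was at 454 and 323 FPKM (-0.49), and Hsph1, its cochaperone, at 10.3 and 4.72 FPKM (-1.05). Hspd1, the mitochondrial chaperonin, was the single member 2-fold higher, at 0.00290 and 0.818 FPKM (1.39), but the same transcript was at 224 FPKM in misty and 149 FPKM in db. Of 20 targets of p53, 4 were 2-fold or more higher, and the cell cycle inhibitor Cdkn1a led with 0.613 and 2.56 FPKM (1.46).

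Energy metabolism and the clock stayed within 2-fold, as did 96.1% of all genes, so these counts are not read as a trait of these systems. None of 33 nuclear genes of oxidative phosphorylation passed it, with a range of -0.47 to 0.29 and a median of -0.14. None of 7 mitochondrially encoded genes and none of 11 core clock genes passed it, with medians of 0.07 and -0.14. Cell cycle genes had 19 of 23 ratios above 0 and a median of 0.29. Tk1, a kinase of DNA precursors, was at 0.0804 and 0.912 FPKM (1.28) and Cdkn2c, a cell cycle inhibitor, at 0.611 and 1.74 FPKM (1.01), and the proliferation marker Mki67 was at 0.335 and 1.10 FPKM (0.94).

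Among lncRNAs at 0.5 FPKM or more, the lowest ratio belonged to Egfros, an antisense RNA inside the Egfr locus (chr11:16815431-16830702, GRCm38, minus strand). It was at 5.91 and 0.306 FPKM (-2.99), beside -1.42 for Egfr itself. Rapgef4os1 (chr2:72097603-72148796), antisense to Rapgef4, was at 3.45 and 0.358 FPKM (-2.204), and 9030616G12Rik (chr10:128971197-128978115) at 6.78 and 1.66 FPKM (-1.75). The neighbouring intergenic RNAs of chromosome 8, B930025P03Rik (chr8:10870422-10882454) and Gm45044 (chr8:10884453-10891591), had ratios of -1.81 and -1.84. Another neighbour, 4833411C07Rik (chr8:10899922-10903893), was at 5.34 and 1.69 FPKM (-1.41). Of 7 liver noncoding RNAs that the study singled out on these samples, 6 had an OK transcript and the other was not analysed here, and 4 were 2-fold or more lower (B930025P03Rik, 9030616G12Rik, 4833411C07Rik and 9030622O22Rik), with a median of -1.21. They were chosen on these livers, so their count is not independent evidence of their direction.

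On the higher side, Gm45086 (chr7:48724380-48726822) was at 0.517 and 3.29 FPKM (1.90) and Gm11695 (chr11:115462045-115463454), an antisense RNA, at 0.999 and 4.36 FPKM (1.70). Gm28289, also antisense (chr10:14149084-14154446), was at 0.603 and 3.005 FPKM (1.67). Gm11706 and Gm28063 were listed at 0 in CD and were at 2.998 and 2.96 FPKM in HFD. H19, an imprinted RNA silenced in adult liver, was at 0.0928 and 1.09 FPKM (1.42), and the RNA component of ribonuclease P, Rpph1, at 17.2 and 36.6 FPKM (1.07). The other 16 of 18 well-known noncoding RNAs lay within 2-fold, as did 96.1% of all genes. Where an antisense RNA overlaps its host gene, the levels rest on how strand was used in the counting, which is not given in the sources used here.

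Promoters were searched for 5 short motifs because several of the groups above have a known factor. RefSeq promoters (GRCm38.p6), from 250 bases before to 50 bases after the start of the gene, matched 7659 of 11996 genes, 177 of them 2-fold higher and 83 2-fold lower. The core of the antioxidant response element (TGACNNNGC on either strand) was present in 18.6% of the higher, 15.7% of the lower and 15.1% of all promoters. The STAT site (TTCNNNGAA) was present in 5.08%, 7.23% and 7.26%, and the E-box (CACGTG) in 8.47%, 8.43% and 10.2%. The sterol regulatory element (TCACNCCAC) was present in 3 of the higher (1.69%), 2 of the lower (2.41%) and 92 of all promoters. The amino acid response element (TTGCATCA) was present in 3 of the higher (1.69%), 1 of the lower and 50 of all promoters (0.653%). None of these shares among genes past 2-fold is read as a result. The stress response list held the amino acid response element in 4 of 26 promoters (15.4%), those of Herpud1, Nupr1, Chac1 and Atf3. The list of serine, one-carbon and methionine genes held it in 0 of 11. The antioxidant core was present in 4 of 21 NRF2 target promoters, the STAT site in 2 of 25 male-biased and 2 of 19 female-biased promoters, and the sterol element in 1 of 10 cholesterol and 1 of 13 lipogenesis promoters. The E-box was present in 2 of 13 lipogenesis and 2 of 18 glycolysis promoters. These lists were searched because they have a known factor, so the shares within them are not read as a result of the diet comparison either.

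Those 4 stress genes had ratios of 0.72 (Herpud1), 0.93 (Nupr1), 0.46 (Chac1) and 0.9962 (Atf3, just within 2-fold). Atf3 is a transcription factor of the stress response, Nupr1 a small chromatin protein, and Chac1 a glutathione-degrading enzyme. The 80 bases around each match are shown because they hold the motif in these 4 promoters, with the match in capitals, together with the stretch of the Hmgcs1 promoter that holds the sterol regulatory element. All are written along the strand annotated for the promoter. The end of the promoter was found in a transcript of the gene for the 4 stress genes but not for Hmgcs1. The Atf3 stretch lies at chr1:191183400-191183479 (minus strand), that of Herpud1 at chr8:94386281-94386360 (plus), that of Chac1 at chr2:119351013-119351092 (plus), that of Nupr1 at chr7:126625537-126625616 (minus) and that of Hmgcs1 at chr13:119690179-119690258 (plus). A match is a description of letters and not of a bound site.
Atf3: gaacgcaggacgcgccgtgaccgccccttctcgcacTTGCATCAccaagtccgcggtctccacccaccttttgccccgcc
Herpud1: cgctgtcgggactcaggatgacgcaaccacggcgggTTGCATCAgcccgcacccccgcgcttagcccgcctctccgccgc
Chac1: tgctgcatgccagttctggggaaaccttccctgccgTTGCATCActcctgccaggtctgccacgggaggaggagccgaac
Nupr1: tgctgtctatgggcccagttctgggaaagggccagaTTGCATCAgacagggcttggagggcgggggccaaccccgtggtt
Hmgcs1: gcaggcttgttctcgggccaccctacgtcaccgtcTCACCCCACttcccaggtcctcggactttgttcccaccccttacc

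The ratios of HFD over CD were set beside those of db over misty, a comparison with its own table, its own controls and 11561 genes, of which 3.94% were 2-fold or more higher and 2.22% lower. Of 9746 genes in both tables, 227 were 2-fold higher in HFD and 394 in db, and 72 were shared (31.7% and 18.3%). On the lower side 119 and 221 genes passed, and 55 were shared (46.2% and 24.9%). Across the 4589 genes with a mean of 1 FPKM or more in both tables, Pearson's r of the ratios was 0.52, over genes that are not independent replicates. The male-biased list had medians of -1.42 in HFD and -1.71 in db over the same genes, and the female-biased list 0.89 and 1.82. Among lists with 5 or more genes in both tables, the 5 largest gaps between the medians of the shared genes were those of the female-biased list, the P450 genes (-0.36 in HFD and 0.77 in db), the carbonic anhydrases and aquaporins (-0.13 and 0.80), the conjugation enzymes (-0.01 and 0.79) and the recruited macrophage markers (1.19 and 0.50). None of these gaps could be tested. Mup20 was at -0.07 in HFD and -2.66 in db, and Cidea at 3.18 and 1.37.

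**Figure D5:**
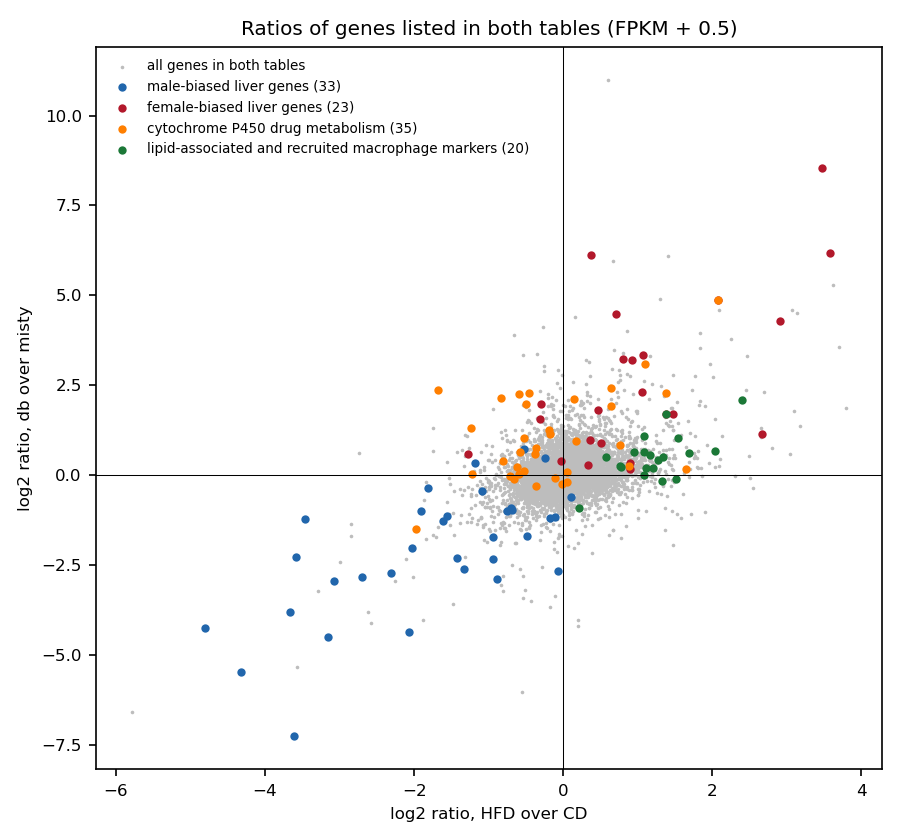
Log2 ratio of HFD over CD (horizontal) and of db over misty (vertical) for genes in both tables, 1 grey point per gene, with members of 4 lists coloured. Male-biased genes lie mostly at the lower left in both, and P450 genes lie mostly above 0 for db only.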

How the data were processed

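RNA of 3 HFD and 3 CD livers was sequenced after depletion of ribosomal RNA, and 3 db and 3 misty livers form a second table. The sources name Bowtie2 2.2.9 for ribosomal reads, STAR 2.6.0c for alignment (GRCm38) and the Cufflinks suite 2.2.1, with Cuffdiff, for assembly and comparison. Kits and instruments are named differently in different sources. The deposited FPKM values are 1 pooled value per group and transcript, as the authors' Cuffdiff run gave them. The authors' fold changes, test statistics, p-values, q-values and calls are also in the tables and were not used.

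Of 62486 transcripts, 19834 had status OK, 42627 were not tested, 17 failed and 8 had low data. OK transcripts without a gene name (3085) were left out. For each of 11996 genes the OK transcript with the highest mean was taken (8359 genes had 1, 3637 more), with a pseudocount of 0.5 FPKM and a threshold of 2-fold. Of 77 genes past it with a second transcript at 1 FPKM or more, that transcript had the same sign in 73 and was also past 2-fold in 48. No test, error or depth could be computed. The 70 gene lists held 1862 genes, of which 1312 were described, and the members and lists were chosen with earlier results of these data known. Named genes were the 15 largest ratios in each direction at 1 FPKM or more, up to 5 per direction and the most abundant gene of each list, 5 lncRNAs per direction at 0.5 FPKM or more, the 10 largest gains and losses in FPKM, and genes behind counts of 5 or fewer; some genes that the rule selects are not reported here. A few list members outside the rule are named beside these and were chosen after their values were seen. The functions were tested on simulated data. Alternatives were pseudocounts of 0.1 and 1 FPKM, genes with a mean of 1 FPKM or more, summed transcripts, rows of any status and centred ratios. Python 3.11.15, pandas 2.3.3 and numpy 2.4.6 were used.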

Additional observations from a re-analysis of the deposited data

How the results depend on the processing

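The counts past 2-fold depended on the pseudocount. With 0.1 FPKM in place of 0.5 FPKM, 822 genes were higher and 344 lower, and with 1 FPKM, 203 were higher and 97 lower. The other 4 alternatives kept both counts within 1.5 times, among them summed transcripts (356 higher and 143 lower) and genes with a mean of 1 FPKM or more (236 and 113 of 6301). The median of all genes ranged from -0.03 to 0.02. Under the 6 alternatives no named ratio past 2-fold changed sign. With 1 FPKM the recruited macrophage median was 0.96. With 0.1 FPKM, the medians of female-biased genes (1.13), chemokines (1.26), neutrophil markers (1.45) and adipocyte markers (1.30) passed 1, and over rows of any status the adipocyte median was 0.15. Over genes with a mean of 1 FPKM or more, the medians were 1.32 for 11 chemokine genes, 1.36 for 3 neutrophil markers and 1.15 for 3 T, B and NK cell markers. Leaving out single livers could not be done, and no paired analysis was possible because the tables hold 1 pooled value per group. Depth per liver is unknown, and no difference was set here against the spread between animals.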

Other observations

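Several gene groups outside the lists stood out, and they were chosen after their values were seen. Of 34 replication histone genes, whose RNAs lack a poly(A) tail and are kept by ribosomal depletion, 10 were 2-fold or more higher in HFD and none lower, with a median of 0.57. Hist1h2bf had 1.33 FPKM in CD against 7.33 FPKM in HFD (2.10), Hist1h3i at 0.711 and 4.11 FPKM (1.93) and Hist1h2bl at 1.61 and 6.66 FPKM (1.76). The more abundant linker histones Hist1h1c (22.8 and 14.9 FPKM) and Hist1h1e (22.5 and 12.9 FPKM) had ratios of -0.59 and -0.78.

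Carboxylesterases, which hydrolyse lipids and drugs, lay on both sides. Ces3a (45.5 and 15.1 FPKM), Ces3b (19.1 and 4.90 FPKM) and Ces2a (77.9 and 31.2 FPKM) were 2-fold or more lower, and Ces1g (37.4 and 85.9 FPKM), Ces1c (50.03 and 103 FPKM) and Ces2c (2.86 and 6.39 FPKM) higher, of 14 genes. All 3 antisense RNAs of Rapgef4 were 2-fold lower, with Rapgef4os2 at -1.39 and Rapgef4os3 at -1.26. Of 58 ribosomal protein genes, only Rps4l passed 2-fold, at -1.03, while 96.1% of all genes lay within it. Rcan1 and Rcan2, inhibitors of calcineurin, were at ratios of 1.53 and 1.16, and Slc10a2, the ileal bile acid carrier, at 0.761 and 3.27 FPKM (1.58). The hepatic miRNA gene Mir122 was at 75.2 and 43.2 FPKM (-0.79), a precursor level that does not measure the mature miRNA.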
